A study of Sparus aurata with 16 samples.

Results

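The sequence listed as mALT on an oligonucleotide microarray of the gilthead sea bream (Sparus aurata) stands for mitochondrial alanine aminotransferase. Its members were all spots that carry this name and are not controls, which gave 1 of the 25225 sequences of the array, measured by 2 probes with 4 spots in all on each array. Alanine aminotransferase is an enzyme that uses pyridoxal phosphate and moves the amino group of alanine onto 2-oxoglutarate, which yields pyruvate and glutamate. The reaction is reversible and links amino acid catabolism with glycolysis, gluconeogenesis and the citric acid cycle. Vertebrates have mitochondrial and cytosolic forms of the enzyme, and the array also lists the cytosolic forms cALT1 and cALT2.

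Total RNA came from juvenile fish, from liver and from white skeletal muscle. In each tissue 4 fish had been deprived of food (Starved) and 4 fish had received each of 3 diets, named by their levels of protein, lipid and carbohydrate in that order. HLL was high in protein and low in lipid and carbohydrate, MHL was medium in protein, high in lipid and low in carbohydrate, and LLH was low in protein and lipid and high in carbohydrate. Fed fish received 25 g/kg body weight a day, and feeding or deprivation lasted 23 days. The labels give no genetic change and no other agent in any group. Each of the 8 arrays per tissue carried 1 fish labelled with Cy5 and 1 fish of another group labelled with Cy3. Starved fish shared arrays with HLL or LLH fish, and so did MHL fish, with 2 dye-swapped arrays for each of these 4 pairs. Starved was never on an array with MHL, nor HLL with LLH.

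The labels of the Cy5 sample on 1 liver array conflicted, naming both HLL and LLH, and the sample title, HLL, was followed here. By the titles each liver group held 4 fish, the number per condition that the study states, and LLH fish 1 of the liver was on another array. Taking the sample as LLH changed no call for mALT. The liver arrays and the muscle arrays may each have lain on a slide of their own, so slide and tissue cannot be told apart. As a check of the tissues, PKL, the pyruvate kinase typical of liver, had log2 levels of 9.02 to 10.44 in liver against 6.92 to 7.58 in muscle. PKM, the form typical of muscle, did not mark the muscle. Its levels of 6.36 to 6.58 there were near background, with 39 of 64 spots well above it, against 6.24 to 6.52 and 29 of 64 spots in the liver. The remaining marker genes are not named by the array identifiers, so the share of other cell types was not tested.

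The mALT signal was far above background in both tissues. All 64 liver spots and all 64 muscle spots were well above background, and no spot was saturated or flagged. Raw median intensities ran from 5487 to 48487.5 in the liver, over a local background of 24 to 75. In the muscle they ran from 719.5 to 23976.5, over a background of 21 to 73. The number of arrays limits the precision. Spots of the same probe on the same array and dye differed by a median of 0.22 (liver) and 0.23 (muscle) on the log2 scale. For each probe the same spot was the brighter on every array and in both dyes, so this gap is not random noise alone.

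In the skeletal muscle, mALT was several times higher in starved fish than in fish of any diet. The normalised intensity, which is on a log2 scale throughout, was 13.21, 13.19, 13.27 and 13.16 in the 4 starved fish. The diet HLL gave 10.67, 10.56, 10.91 and 10.89, MHL gave 11.34, 10.99, 10.92 and 11.16, and LLH gave 11.35, 11.29, 11.08 and 11.37. All 4 starved fish lay above all 12 fed fish, and the lowest starved fish exceeded the highest fed fish by 1.79. Averaged over the probes, the starved fish also lay close together, with a mean of 13.21 ± 0.05 (SD, n = 4). Their SD was 0.11 on the first probe, near the 0.12 of LLH there, and 0.04 on the second. Starved fish 4 was the lowest of them on the first probe (12.70) and the highest on the second (13.61).

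**Figure D1:**
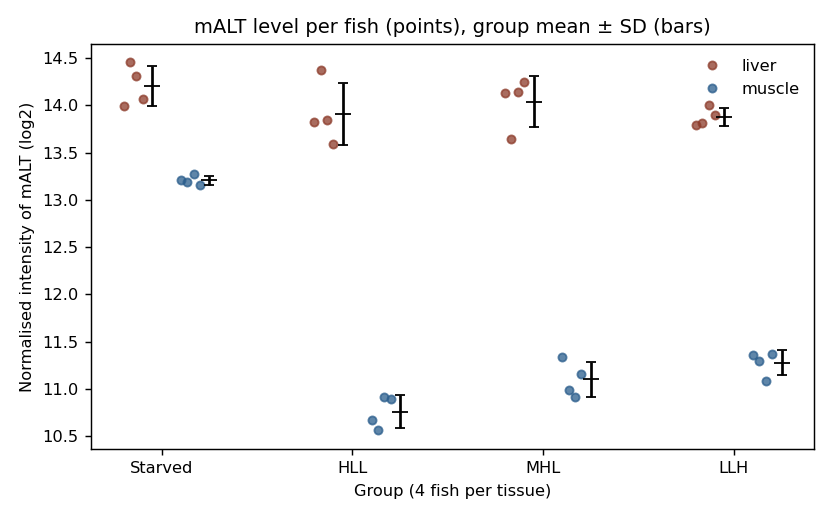
Normalised log2 intensity of mALT (y axis) in Starved, HLL, MHL and LLH fish (x axis), with 1 point per fish and black bars for the group mean ± SD of 4 fish, each tissue on the scale of its own normalisation. The starved muscle samples sit between 13.16 and 13.27, all above the fed ones, while the liver groups overlap.

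Starved fish differed from the mean of the 3 diets in muscle by 2.15 on the log2 scale, or 4.43-fold (SE 0.08, 95% interval 1.97 to 2.32, limma, adjusted P value = 2.43e-09). Of all sequences tested in this comparison, 36.9% were significant in either direction. A difference at least as large in either direction was seen in 1.14% of sequences. A significant rise at least as large was seen in 136 of 25222 sequences, which is 0.539%. At the level of fish, the difference between starved and fed was 2.16, or 4.47-fold (two-sided exact permutation test, p = 5.49e-04, the smallest that the splits of the fish can give). All permutation tests here treat the fish of a tissue as exchangeable. They ignore that the fish were hybridised in pairs and may have shared aquaria within a group.

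Against each diet the rise in muscle was significant in limma. It was 5.45-fold over HLL (log2 difference 2.45, 95% interval 2.24 to 2.65, adjusted P value = 7.54e-09), where 34.8% of all sequences were significant. Over MHL it was 4.25-fold (2.09, 1.87 to 2.31, adjusted P value = 4.85e-08), with 30.9% of sequences significant. Over LLH it was 3.77-fold (1.91, 1.70 to 2.12, adjusted P value = 6.58e-08), with 28.2% significant. In bulk tissue, a change in the number of cells of a type and a change in RNA per cell cannot be told apart.

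The order of the fed groups in muscle was HLL, with a mean of 10.76 ± 0.17 (SD, n = 4), then MHL with 11.10 ± 0.19 and LLH with 11.28 ± 0.13. The fish of HLL lay below those of MHL by a margin of only 0.0081, and below those of LLH by 0.17, while MHL and LLH overlapped. No difference between diets passed the threshold. LLH exceeded HLL by 0.53, or 1.45-fold (95% interval 0.31 to 0.75, limma, adjusted P value = 0.0548), in a comparison where 0.254% of all sequences were significant. This call depended on the processing, since the adjusted P value fell below 0.05 under 3 of the other settings, at 0.0031 with no normalisation between arrays, 0.0468 with a filter on dim probes and 0.0404 with the fish number as a replicate block. It also did so without MHL fish 1 (0.0352) and without LLH fish 3 (0.0469). Over the settings other than leaving out a fish it ran up to 0.329.

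MHL exceeded HLL by 0.36 (95% interval 0.15 to 0.57, limma, adjusted P value = 0.201), with 0.0159% of sequences significant. With no normalisation between arrays, that difference was 0.42 and its adjusted P value was 0.0155. LLH and MHL differed by 0.17 (95% interval -0.04 to 0.38, adjusted P value = 0.844), and 0% of sequences were significant there, although 1639 had an unadjusted P value under 0.05. With no normalisation between arrays 361 sequences were significant between LLH and MHL, and 1037 between MHL and HLL in place of 4. No neighbours in the order of the diets passed the test.

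In the liver, mALT showed no significant difference between starved and fed fish. The level was 13.99, 14.45, 14.31 and 14.06 in the starved fish and 13.83, 14.37, 13.84 and 13.59 with HLL. It was 14.13, 13.65, 14.14 and 14.25 with MHL, and 13.79, 13.82, 14.00 and 13.90 with LLH. Only 1 of the 4 starved fish lay above all fed fish, and 5 of the 12 fed fish lay above the lowest starved fish.

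From the lowest group to the highest, the liver means were 13.88 ± 0.10 in LLH, 13.91 ± 0.33 in HLL, 14.04 ± 0.27 in MHL and 14.20 ± 0.21 in Starved (SD, n = 4 each). Every pair of groups overlapped, so no neighbours in this order stood apart. The overlap of Starved with LLH was narrow, at 0.0067.

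Starved fish exceeded the mean of the diets in the liver by 0.22, or 1.17-fold (SE 0.13, 95% interval -0.05 to 0.50, limma, adjusted P value = 0.232), whereas 29.6% of all sequences were significant. At the level of fish the difference was 0.26 (two-sided exact permutation test, p = 0.0714). With median centring in place of loess within arrays the difference was 0.47 and passed the threshold (adjusted P value = 0.0161).

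Against single diets in the liver the differences were 0.29 for HLL (95% interval -0.05 to 0.62, adjusted P value = 0.216), 0.11 for MHL (-0.24 to 0.46, 0.723) and 0.28 for LLH (-0.05 to 0.61, 0.236), all from limma. The shares of sequences significant in these comparisons were 26%, 23.7% and 23.6%. The comparison with HLL passed with median centring (0.53, adjusted P value = 0.0261) and without HLL fish 2 (0.45, adjusted P value = 0.0469), and that with LLH with median centring (0.54, adjusted P value = 0.0268). The upper limits of these 3 intervals, up to 0.62, lie below the lower limits for the same comparisons in muscle, which start at 1.70.

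Between diets in the liver, MHL exceeded HLL by 0.18 (95% interval -0.15 to 0.51, adjusted P value = 0.651 in limma, 1.78% of sequences significant). LLH and HLL differed by 0.01 (-0.34 to 0.36, adjusted P value = 0.994, 2.31% significant). That background of 582 sequences dropped to 1 with the conflicting label read as LLH, and to 3 in the fit of log ratios. For MHL and HLL the corresponding numbers were 448, 67 and 2. LLH was at -0.18 relative to MHL (-0.51 to 0.16, adjusted P value = 0.817), a comparison in which 0.00396% of sequences, or 1, were significant and 2352 had an unadjusted P value under 0.05.

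The starvation effect on mALT differed between the tissues. In a fit over both tissues the effect in the liver minus that in the muscle was -1.96 on the log2 scale (SE 0.16, 95% interval -2.28 to -1.64, limma, adjusted P value = 2.26e-10). Of all sequences, 37.5% differed significantly between the tissues in this effect. The fit treated liver and muscle samples as separate fish, although both tissues may come from the same fish.

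On the common scale of that fit, the levels of fed fish were 13.25 to 14.01 in liver, compared with 10.72 to 11.63 in muscle. Fed fish thus did not overlap, and mALT was 5.13-fold higher in the liver (log2 difference 2.36, limma, adjusted P value = 2.93e-19, 73.5% of sequences significant). Starved fish had levels of 13.66 to 14.10 in liver, compared with 13.39 to 13.51 in muscle. Here mALT was 1.32-fold higher in the liver (0.40, 95% interval 0.11 to 0.69, adjusted P value = 0.0140, 64.9% significant), and the call was lost with median centring (0.31, adjusted P value = 0.0794) and without liver Starved fish 2 (0.33, adjusted P value = 0.0605). The size of both differences depended on the processing. Over the settings other than leaving out a fish it ran from 0.31 to 0.89 in starved fish and from 2.34 to 2.93 in fed fish. As each tissue may have lain on its own slide, the part of the slide in these differences in level cannot be told apart from that of the tissue.

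Ratios within single arrays need no normalisation between arrays and compare fish hybridised together. In muscle, Starved over HLL had log2 ratios of 2.36 with the starved fish in Cy5 and 2.26 with it in Cy3, and Starved over LLH of 1.84 and 2.10. MHL over HLL gave 0.67 and 0.43, and MHL over LLH gave -0.38 and -0.20. Both dye orientations thus had the same sign for each of these pairs of groups in muscle.

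**Figure D2:**
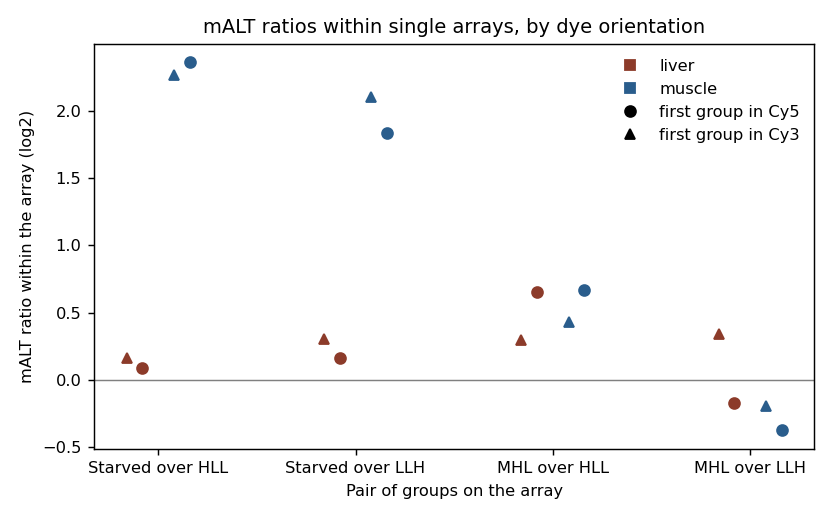
Log2 ratio of mALT within each array (y axis) for the 4 pairs of groups hybridised together (x axis), with circles where the first group was labelled with Cy5 and triangles where it was labelled with Cy3. The muscle arrays of Starved lie between 1.84 and 2.36, and the liver arrays of Starved between 0.09 and 0.30.

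In the liver, Starved over HLL was 0.09 and 0.17, and Starved over LLH was 0.17 and 0.30. All 4 were above 0, and each was smaller than every corresponding ratio in muscle. MHL over HLL was 0.65 and 0.30, and MHL over LLH was -0.17 and 0.34, so that the sign of the last pair differed between the arrays. The fitted effect of Cy5 on mALT was -0.05 (SE 0.10) for liver and -0.01 (SE 0.07) for muscle.

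The intensities before normalisation show the same separation of starved muscle. On the Starved and HLL array with the starved fish in Cy5, the 4 spots had raw intensities of 10620.5 to 18888.5 for the starved fish and 719.5 to 1265 for the HLL fish. On the dye-swapped array they were 6470.5 to 14541.5 for the starved fish in Cy3 and 1613.5 to 3102.5 for the HLL fish in Cy5.

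Both probes of mALT gave this separation. In muscle the first probe had means of 12.85 ± 0.11, 10.45 ± 0.16, 10.79 ± 0.20 and 10.95 ± 0.12 in Starved, HLL, MHL and LLH (SD, n = 4 each). The second had 13.56 ± 0.04, 11.06 ± 0.19, 11.41 ± 0.18 and 11.60 ± 0.16. Each probe therefore gave the same order of groups in muscle.

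In the liver the first probe had means of 13.83 ± 0.26, 13.49 ± 0.40, 13.71 ± 0.26 and 13.51 ± 0.08 in Starved, HLL, MHL and LLH, and the second had 14.58 ± 0.17, 14.32 ± 0.26, 14.37 ± 0.29 and 14.24 ± 0.14. The order of HLL and LLH differed between the probes there. Over the 16 fish of a tissue, the probes correlated with r = 0.89 (liver) and 0.996 (muscle), as a description of points that share arrays. The muscle value spans the wide difference between starved and fed fish, so the values of r are not comparable between the tissues. The gap between the probes had an SD of 0.13 over the liver fish and 0.10 over the muscle fish.

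The cytosolic forms cALT1 and cALT2 behaved differently from mALT. They gave nearly the same values as each other, with r of at least 0.99 over the 16 fish of each tissue, and are not independent. The largest gap between them in any fish was 0.11 in liver and 0.13 in muscle on the log2 scale. Whether their probes tell the forms apart was not tested, so the values of cALT2 are no separate finding. In the liver, cALT1 had levels of 13.60 to 14.55 in starved fish and 14.55 to 16.22 in fed fish. The starved fish all lay below the fed, but the margin was only 0.0029, and 0.03 for cALT2. It fell by 1.24 on the log2 scale against the mean of the diets (limma, adjusted P value = 1.60e-04), and cALT2 fell by 1.27 (adjusted P value = 1.77e-04). In muscle, the starved fish, at 11.75 to 12.05 for cALT1, lay within the range of the fed, at 11.09 to 12.90. The difference there was -0.11 for cALT1 (95% interval -0.57 to 0.35, adjusted P value = 0.746) and -0.13 for cALT2 (-0.58 to 0.32, 0.706). With median centring these were 0.26 and 0.24 and again not significant.

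**Figure D3:**
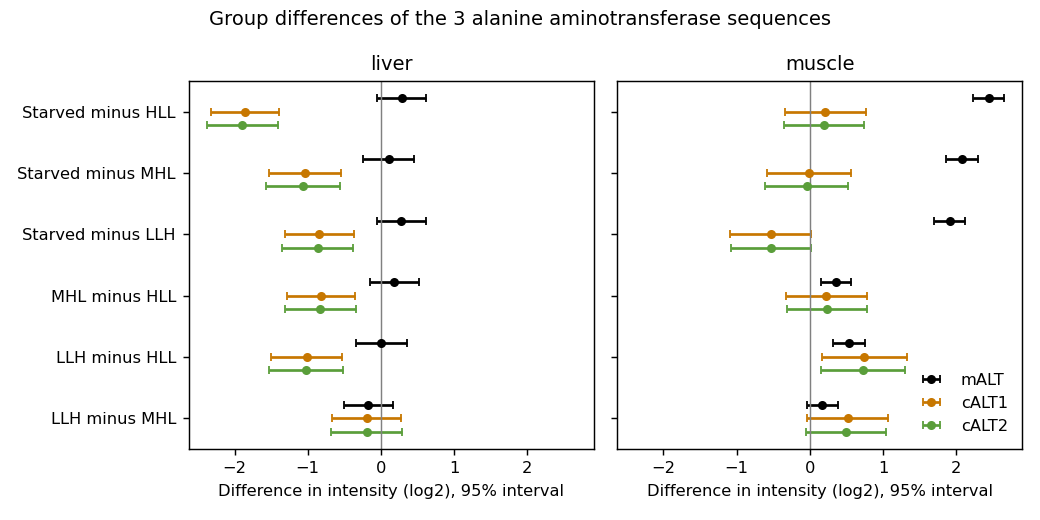
Fitted log2 differences between groups (x axis) with their 95% intervals for mALT, cALT1 and cALT2 in the liver (left) and the skeletal muscle (right), 1 row per comparison of 2 groups. In muscle only the intervals of mALT for Starved minus each diet lie wholly above 1, and in the liver those of cALT1 and cALT2 for Starved minus each diet lie wholly below 0.

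The difference between forms was tested within fish, with each fish's mALT level minus its cALT level as 1 value. The values carry a probe offset and have no meaning as amounts, but their change between groups does. In the liver, mALT minus cALT1 was -0.27 to 0.40 in starved and -2.36 to -0.73 in fed fish, a change of 1.47. Most of that lay in cALT1, with means of 14.23 in starved and 15.43 in fed liver, against 14.20 and 13.94 for mALT. In muscle, mALT minus cALT1 was 1.12 to 1.52 in starved and -1.53 to -0.11 in fed fish, a change of 2.25. Starved and fed fish did not overlap in either tissue. With cALT2 the changes were 1.49 and 2.27. All 4 had p = 5.49e-04 (two-sided exact permutation test, 4 starved against 12 fed fish, adjusted over the 4 tests), the smallest the splits can give. The starvation effect of cALT1 also differed between tissues, by -1.13 (limma, adjusted P value = 0.0032), and that of cALT2 by -1.14 (0.0033).

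**Figure D4:**
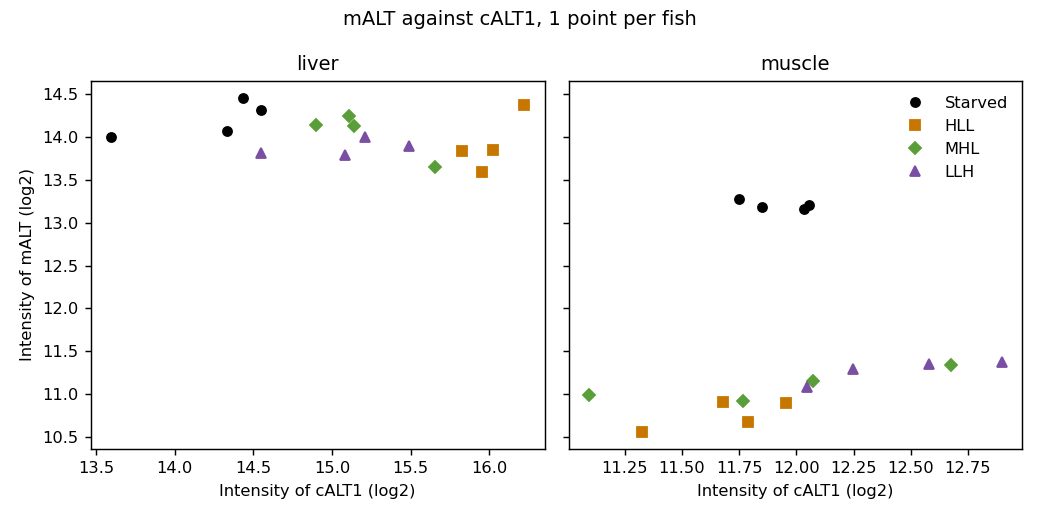
Normalised log2 intensity of mALT (y axis) against cALT1 (x axis), 1 point per fish, in the liver (left) and the skeletal muscle (right), with a symbol for each group. In muscle the starved fish (mALT 13.16 to 13.27) lie above all fed fish, and in liver their cALT1 (13.60 to 14.55) lies below that of the fed fish by a margin of 0.0029.

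Among diets, LLH minus HLL in the liver was -1.01 for cALT1 (limma, adjusted P value = 0.0360) and -1.03 for cALT2 (0.0404), against 0.01 for mALT. These calls were not stable. For each form, 7 of 14 alternatives passed the threshold, and of 16 fits with a fish left out 7 passed for cALT1 and 5 for cALT2. Taking the fish of the conflicting label as LLH leaves HLL with fewer fish than the study states. The differences were then -0.96 and -0.96, with limma adjusted P values of 0.273 and 0.288. In muscle, LLH exceeded HLL by 0.75 for cALT1 (95% interval 0.17 to 1.32, adjusted P value = 0.303) and by 0.73 for cALT2 (0.307), against 0.53 for mALT. Whether the forms differ in their response to the diets was not tested.

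Beside the alanine aminotransferases, the array names the pyruvate kinases PKL and PKM, which form pyruvate in the last step of glycolysis, and the acetyl-CoA carboxylases ACC1 (in 2 transcript variants) and ACC2, which make malonyl-CoA. Of these 5 and the cytosolic aminotransferases, 6 of 7 were significantly lower and 0 higher in starved liver than with the mean of the diets, with a median change of -0.64 against 0.00 over all sequences. Over all sequences 14.4% were lower and 15.2% higher in that comparison. The 7 are not independent, as cALT1 and cALT2 gave nearly the same values and 2 entries are variants of ACC1. In muscle 1 of the 7 was lower (PKM, by a log2 difference of -0.08) and 0 were higher, with a median of -0.08, where 17.7% of all sequences were lower and 19.3% higher. mALT was thus the only one of the 8 sequences with a gene symbol that rose with starvation in muscle. Several of the others were dim. ACC1 variant 1 had 10 of 64 liver spots and 2 muscle spots well above background, and ACC1 variant 2 had 39 and 0. ACC2 had 27 and 37, and PKM had 29 and 39. Their small differences lie on a scale that the offset of 50 compresses.

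The pattern of mALT over fish was set beside those of all sequences with spots well above background in every channel, as a description. In muscle the nearest of 14688 sequences were isotig04941 (r = 0.98 over 16 fish), isotig11851 (0.98) and isotig03954 (0.98), identifiers of the transcriptome assembly that carry no gene name here. They rose in starved muscle by 1.01, 2.65 and 3.37 on the log2 scale. Their choice by likeness to mALT over the same fish largely fixed this rise in advance, so it carries no test. High values are common in muscle, where the highest 1% of sequences began at r = 0.95, and cALT1 had r = 0.10.

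In the liver the nearest of 15006 sequences were isotig02496 (r = 0.81), isotig09099 (0.78) and isotig03903 (0.78). Of these, isotig03903 was higher in starved liver, by 0.34 (limma, adjusted P value = 0.0105), and isotig02496 and isotig09099 differed by 0.10 and 0.14 without passing the threshold. cALT1 had r = -0.32 with mALT in the liver. Over the 32 values of both tissues, after each tissue's mean was taken out, the nearest of 12564 were isotig02496 (0.96), isotig08733 (0.95) and isotig03244 (0.95). All 3 rose in starved muscle, by 1.88, 2.42 and 2.09. In the liver isotig03244 was higher by 0.24 (adjusted P value = 0.0107), while isotig02496 and isotig08733 differed by 0.10 and 0.14 without passing the threshold. Fish of a tissue share arrays and a normalisation, so these correlations carry no test. The sequences were chosen over the same fish, so their changes with starvation are no separate result either.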

How the data were processed

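The authors hybridised liver and white muscle RNA on 16 two-colour arrays and deposited, for each, Agilent Feature Extraction (version 10.7, per the submitters' processing notes) output with median intensities of spots and local background, which were used here. The same deposited output holds processed intensities, with background and dye corrections made by Feature Extraction, and their log10 ratio. The authors also deposited normalised log2 ratios, whose rows run in reverse order of the feature numbers (r of 0.800 to 0.909 with the scanner ratios). Their centring is near 0. Regressed on the scanner ratios in log2, they had slopes of 0.48 to 0.72. No columns of the authors' comparisons were present. Background was corrected by normexp (offset 50). The 1319 control spots were then left out, flagged spots (0.039 to 0.096% per array) were set to missing, and loess within and Aquantile between arrays were applied. Spots of a probe, and then probes of a sequence, were averaged. Between 56.0 and 66.6% of spots per channel were well above background, and the number of arrays limits the precision.

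Log2 intensities of separate channels were modelled on group and dye, arrays being random blocks, in limma 3.58.1 under R 4.3.3 with statmod 1.5.0, with two-sided moderated tests and Benjamini-Hochberg adjustment over all sequences (threshold 0.05). The intraspot correlation, from 5000 sequences, was 0.222 in the liver, 0.210 in the muscle and 0.147 over both. Tested on simulated data for Starved against the mean of the diets, limma recovered 186 (liver, 25225 sequences tested) and 184 (muscle, 25222 tested) of 200 changes with a log2 size of 1, beside 20 and 6 false calls. In the liver these false calls were a larger share of all calls than the threshold of 0.05. With a log2 size of 2, limma recovered 198 (liver) and 197 (muscle) of 200, beside 14 false calls in each tissue. That share was above 0.05 in both tissues. Each setting was a single simulated draw. The simulated noise was normal and only 200 sequences changed, whereas 29.6% (liver) and 36.9% (muscle) were significant in the real data. In those simulations the intraspot correlation came out too high, at 0.310 where 0.222 was simulated in the liver and at 0.277 where 0.210 was simulated in the muscle, while duplicateCorrelation gave 0.245 and 0.218. A fit with the latter was therefore added as an alternative. Fish are separate samples by title. Nothing in the labels says that a fish number marks a shared litter, tank or day, so the numbers were not used to pair fish. By the study, fish were kept in aquaria, and the labels do not give the aquarium of any fish. Fish of a group may have shared an aquarium, but all tests treated them as independent. A part of the aquarium in the group differences therefore cannot be told apart from that of the condition. The study names 4 fish per condition for both tissues, so liver and muscle may come from the same fish. The fit over both tissues treated them as separate. Within a group, residuals of liver and muscle samples had a median correlation of -0.018 for the same number and -0.014 for different numbers. The text names mALT and its probes, the other sequences with a gene symbol, and the 3 sequences most correlated with mALT. Members and lists were chosen with earlier results of these data known. Identifiers carry no names for the planned lists of metabolic enzymes and cell markers, and the RefSeq table matched 0 of the 8 symbols. Alternatives covered background correction, normalisation, the dye term, log ratios, probe choice, the filter on dim probes, the fish number, the label conflict, the correlation estimate and each fish left out. The filter needed a probe well above background in 4 channels.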

Additional observations from a re-analysis of the deposited data

Results flagged for a closer look

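The starvation effect on mALT in the liver minus that in the muscle was -1.96 on the log2 scale (limma, adjusted P value = 2.26e-10), a difference between the tissues found by a test of the difference itself. In 64 groups of 4 fish (8 sequences, 2 tissues), 2 held a fish far from the other 3, where chance gives about 1 in 20 groups, and none of the 8 groups of mALT did. Starved fish 1 in the liver had a cALT2 level of 13.55, against 14.38 to 14.50 in the other starved fish. HLL fish 4 in the muscle had an ACC2 level of 6.63, against 6.39 to 6.41 in the other HLL fish, where 37 of 64 spots of ACC2 in muscle were well above background.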

How the results depend on the processing

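Several results stayed significant in the same direction under every alternative run for them. These were the rise of mALT in starved muscle against each diet and the difference of the starvation effect between tissues. The higher level in fed liver than in fed muscle and the changes relative to cALT1 and cALT2 were also among them. The changes relative to cALT1 and cALT2 were run under only 8 settings and with each fish left out. In the liver they lay mostly in the lower cALT levels, as mALT alone was not significant there in the main fit. Against the mean of the diets the rise in muscle lay between 1.99 and 2.51, or 2.11 and 2.18 with each fish left out, and the difference between tissues between -2.08 and -1.90, or -2.03 and -1.89. In the liver, median centring brought Starved above the mean of the diets (0.47), HLL (0.53) and LLH (0.54) past the threshold. With each fish left out Starved minus HLL ranged from 0.17 to 0.45, passing without HLL fish 2. At the level of fish, the starved liver difference passed with the Feature Extraction processed signals (0.28, exact permutation p = 0.0484) and with the brightest probe (0.27, p = 0.0478), and with each fish left out it ranged from 0.18 to 0.33, passing without Starved fish 1, HLL fish 2 or MHL fish 4. Starved minus MHL in the liver, not significant in any fit, turned negative in the fit of log ratios (-0.10), with no normalisation between arrays (-0.0031) and in the authors' log2 ratios (-0.086), and ranged from -0.036 to 0.21 with each fish left out. LLH minus HLL in the liver turned negative with no dye term (-0.022), normexp with offset 0 (-0.016), the processed signals (-0.0047), median centring (-0.0089), the filter on dim probes (-0.0093), the brightest probe (-0.041) and duplicateCorrelation (-0.0030), and ranged from -0.13 to 0.15 with each fish left out. In muscle, MHL minus HLL passed with no normalisation between arrays (0.42). LLH minus HLL passed with no normalisation between arrays (0.60) and with the filter (0.53), and ranged from 0.47 to 0.60 with each fish left out, passing without MHL fish 1 or LLH fish 3. The level in starved liver over starved muscle missed the threshold with median centring (0.31) and ranged from 0.33 to 0.47 with each fish left out, missing without liver Starved fish 2. Causes were not tested.

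With the fish number as a replicate block, LLH minus HLL was 0.52 (significant) in muscle and -0.045 in the liver, and no other call for mALT changed. In muscle the block moved the number of sequences significant between LLH and HLL from 64 to 430, no between-array normalisation to 1571. Residuals of same-numbered fish correlated over 0.1 in 8 of 24 pairs in liver and 11 of 24 in muscle. On different arrays their median was 0.0013 and 0.014. On the same array it was 0.16 and 0.23 (muscle 0.18 to 0.56), against -0.02 for muscle pairs with different numbers. In each tissue 7 of 16 fish were most like a fish of their own number. These values do not settle a pairing. Median centring moved the share of higher sequences among those significant between Starved and LLH in muscle from 52.4 to 66.2%. The intraspot correlation over all sequences and the duplicateCorrelation fit, chosen after seeing the data, changed no call for mALT.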
